A study of Sus scrofa with 6 samples.

Results

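The genes for the vascular endothelial growth factors (VEGFA, VEGFB and VEGFC), their receptors (FLT1, KDR and FLT4), the angiopoietins (ANGPT1 and ANGPT2) and the receptors TEK and TIE1 were followed in the lung of piglets around birth. They were picked by gene symbol, through the pig Ensembl identifiers of the mRNA table, and 9 of the 10 were found among its 14579 mRNAs. VEGFB matched none of these identifiers and was not analysed here. All 6 piglets were female crosses of a Tibetan sire and a Meishan dam, each from a different sow. The prenatal (fetal) group comprised 3 piglets taken at the end of gestation, on the day before birth, and the neonatal group comprised 3 piglets aged 2 days. Piglets were bled under ketamine, an anaesthetic, and each library was made from a piece of whole lung. The prenatal piglets were taken by caesarean section and the neonatal ones were born, so age, mode of delivery, breathing and feeding cannot be told apart. Values are FPKM, read fragments scaled to the length of the transcript and to the mapped total of the library, so that levels of different genes can be compared within a lung.

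The VEGF ligands drive the growth and the permeability of vessels. KDR carries most of their signal in endothelial cells, FLT1 binds VEGFA tightly and largely acts as a trap for it, and FLT4 is the receptor of VEGFC and VEGFD on lymphatic vessels. ANGPT1, which comes mainly from mural and mesenchymal cells, activates TEK (also named TIE2) and keeps vessels stable, whereas ANGPT2, released by endothelial cells, can oppose it. TIE1 is a co-receptor of TEK for which no classical ligand is known. In the lung, the alveolar epithelium is a main source of VEGFA, and the capillary bed grows together with the airspaces around birth.

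The lung label was checked against marker genes. SFTPC, a surfactant protein of alveolar type II cells, was at 3171 FPKM or more in all 6 samples, AGER of alveolar type I cells at 396 FPKM or more, and the endothelial adhesion molecule PECAM1 between 120 and 145 FPKM. The summed FPKM of a sample lay between 339491 in Prenatal2 and 777982 in Neonatal3. Median-of-ratios size factors, which ask how far the typical gene of a sample is shifted, lay only between 0.908 and 1.15. The table holds no read counts, so the depth behind a single value is unknown and the spread between the 3 lungs of a group is the only error.

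In the prenatal lungs the levels ran from KDR, at 57.2 ± 3.94 FPKM (SD, n = 3), down to VEGFC, at 1.80 ± 0.388 FPKM (SD, n = 3). Between them stood, in this order, VEGFA, ANGPT1, TIE1, FLT4, TEK, FLT1 and ANGPT2. The ranges of ANGPT1 and TIE1 met, as did those of FLT4 and TEK, and all other neighbours in this order were apart. In the neonatal lungs KDR and VEGFA again led, with ranges that met, and TIE1 now stood before ANGPT1. FLT1, FLT4 and TEK lay together between means of 5.86 and 6.37 FPKM, and their ranges met, that of FLT1 also with that of ANGPT1, as did those of ANGPT2 and VEGFC at the bottom. KDR was thus among the more abundant transcripts, above 94.5% of all mRNAs in the prenatal group and above 91.1% in the neonatal group, while VEGFC was above 24.7% and 21.6% of them.

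**Figure D1:**
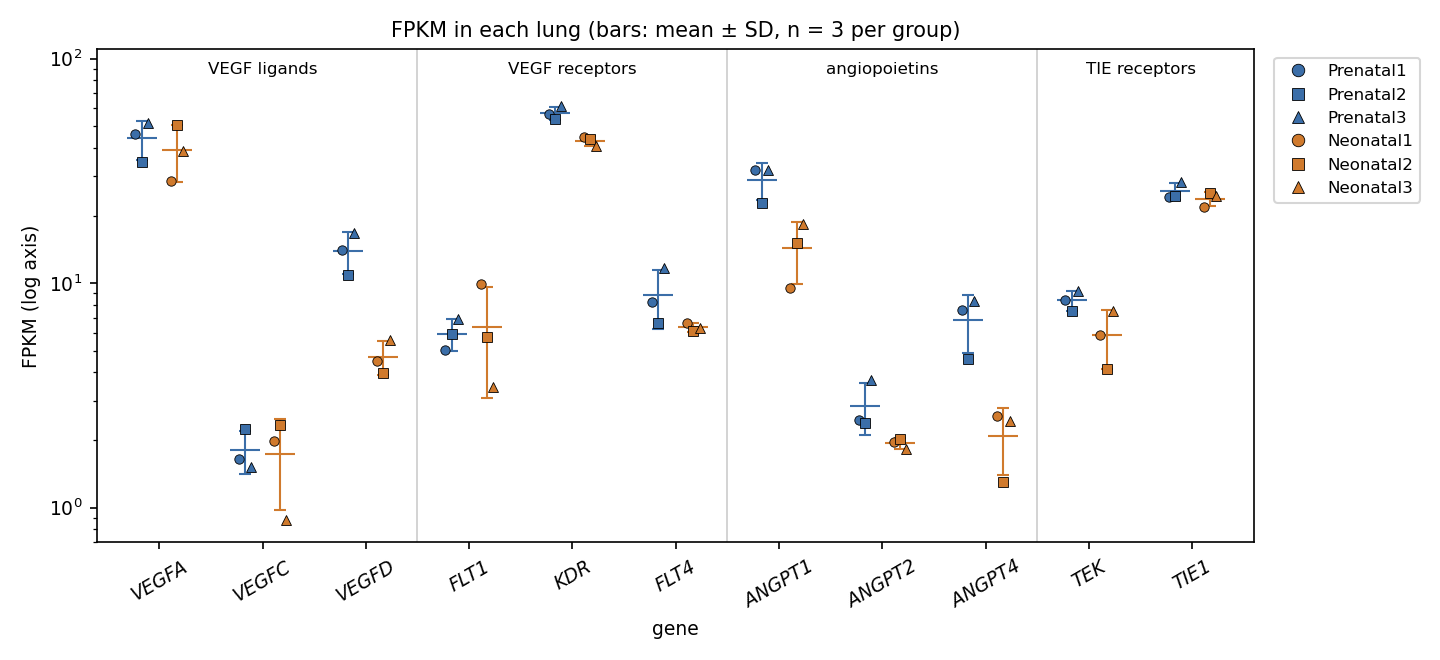
FPKM of the VEGF and angiopoietin ligands and receptors in each lung, on a log axis; colours mark the groups, marker shapes the replicate numbers (which pair no animals), and bars the mean ± SD of 3 lungs. VEGFD and ANGPT4, shown with their families, and ANGPT1 lie lower in every neonatal lung than in any prenatal lung, while VEGFA, VEGFC, FLT1 and TIE1 overlap between the groups.

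The groups were compared to ask how this vascular signalling system differs between the fluid-filled lung and the breathing lung. The mean log2(FPKM + 1) of all 9 genes was lower in the neonatal group, where 40.1% of all mRNAs were lower. Their log2(FC), the neonatal minus the prenatal mean, had a median of -0.37 and a range of -0.99 to -0.01, against a median of 0.13 over all mRNAs. Without Prenatal3 the median of the 9 was -0.19. In limma, with Benjamini-Hochberg adjustment over all 14579 mRNAs, 0 of the 9 passed the threshold of 0.05, which 6.87% of all mRNAs passed, 5.41% as higher and 1.45% as lower in the neonatal group. At an unadjusted p under 0.05 stood 2 of the 9, ANGPT1 and KDR, both lower, against 24.2% of all mRNAs, 6.6% lower and 17.6% higher. In 4 of the 9 (KDR, FLT4, ANGPT1 and ANGPT2) every neonatal value lay below every prenatal value. Of all mRNAs, 30.5% had groups that did not overlap, 9.64% lower and 20.9% higher in the neonatal lungs. The summed FPKM of the 9 was 160 to 206 before birth and 131 to 155 after it, also without overlap. Most of this sum was KDR, VEGFA, ANGPT1 and TIE1, and KDR and ANGPT1 are already counted above. The median log2(FC) was -0.28 for the 4 ligands and -0.39 for the 5 receptors. These tests ran in whole tissue, where fewer cells of a type and less RNA per cell cannot be told apart. Median-of-ratios scaling and quantile normalization set the median of all mRNAs to -0.01 and -0.04. Both thus moved neonatal values down against prenatal ones. All 9 stayed lower under them, but a gene already lower could hardly turn, so this is no check of the direction. Under these scalings 1 of the 9, ANGPT1, was past the threshold.

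**Figure D2:**
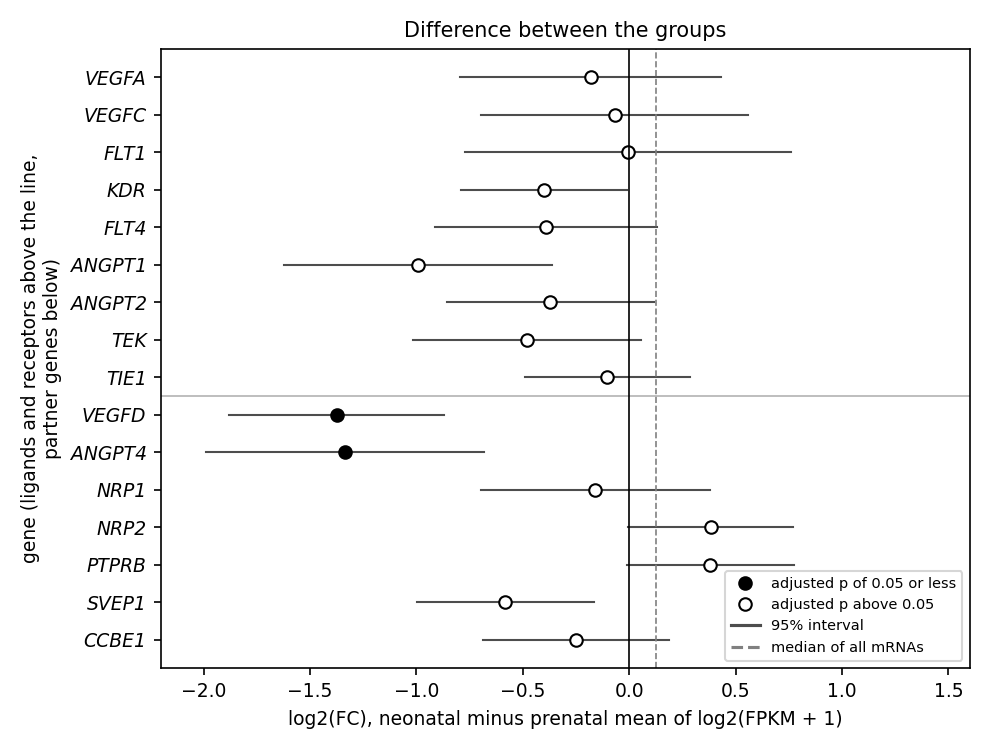
Difference between the groups for the 9 measured ligands and receptors and 7 partner genes, as log2(FC) with its 95% interval from limma; filled points have an adjusted p of 0.05 or less, and the dashed line is the median of all mRNAs, 0.13. The points of all 9 ligands and receptors lie at or below 0, that of ANGPT1 farthest down at -0.99, and only VEGFD and ANGPT4 are filled.

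VEGFA, the main angiogenic ligand, was measured at 46.2, 34.7 and 51.5 FPKM in the prenatal lungs and at 28.5, 50.7 and 38.8 FPKM in the neonatal lungs, given here and throughout in the order of the replicate numbers (Prenatal1 to Prenatal3, Neonatal1 to Neonatal3). The lowest value came from a neonatal lung and the highest from a prenatal one, with the others interleaved. Its log2(FC) was -0.18 (95% interval -0.79 to 0.43, adjusted p = 0.705), and it turned to 0.03 without Neonatal1.

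VEGFC, a lymphangiogenic ligand, was low throughout, at 1.65, 2.24 and 1.51 FPKM before birth and 1.99, 2.33 and 0.882 FPKM after it. Its log2(FC) of -0.07 (95% interval -0.70 to 0.56, adjusted p = 0.896) rested on Neonatal3, without which it was 0.18, and on Prenatal2, without which it was 0.04. The groups overlapped widely.

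VEGFD, the other ligand of FLT4 and no gene of the chosen 10, was lower after birth. It fell from 14.1, 10.9 and 16.7 FPKM in the prenatal lungs to 4.51, 3.99 and 5.60 FPKM in the neonatal lungs. The neonatal mean was 33.8% of the prenatal mean, and no values overlapped. The log2(FC) of VEGFD was -1.38, with a standard error of 0.22 and an adjusted p of 0.0140 in limma. Left out in turn, Prenatal1, Prenatal3 and Neonatal2 each left it just short of the threshold, at adjusted p values of 0.0675, 0.0546 and 0.0680. Of the summed FPKM of VEGFA, VEGFC and VEGFD, VEGFD held 23.2% ± 0.713 before birth and 10.8% ± 3.27 after it (SD, n = 3 each). VEGFA held 73.7% ± 1.05 and 85.3% ± 3.76 (SD, n = 3 each). The level of VEGFA relative to VEGFD was 3.29, 3.19 and 3.08 fold in the prenatal lungs, a narrow range, and 6.32, 12.7 and 6.92 fold in the neonatal lungs.

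KDR, the main signalling receptor for VEGFA, was measured at 56.5, 53.6 and 61.4 FPKM before birth and at 44.7, 43.6 and 40.7 FPKM after it. Each neonatal value lay below each prenatal value, and the neonatal mean was 75.2% of the prenatal mean. KDR was one of the most even genes of the table, with an SD within groups of 0.08 on the log2(FPKM + 1) scale, at the 1.39th percentile of all mRNAs. Its log2(FC) was -0.40 (95% interval -0.79 to -0.01, unadjusted p = 0.0449, adjusted p = 0.195, limma). With each sample left out it stayed between -0.45 and -0.35. Under quantile normalization it was -0.73 with an adjusted p of 0.0537.

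FLT1, the VEGFA trap, had 5.03, 5.91 and 6.94 FPKM before birth and 9.91, 5.73 and 3.45 FPKM after it. The neonatal lungs thus held both the highest and the lowest value, and the SD within groups, 0.48 on the log2 scale, was at the 80.7th percentile of all mRNAs. The neonatal mean FPKM was slightly higher, 6.37 against 5.96, but the mean of the log2 values was not, with a log2(FC) of -0.01 (95% interval -0.77 to 0.76, adjusted p = 0.993). Neonatal1 and Neonatal3 decided its sign: it was -0.34 without the former and 0.31 without the latter. The level of VEGFA relative to FLT1 was 9.18, 5.87 and 7.43 fold in the prenatal lungs, and it spread from 2.88 fold in Neonatal1 to 11.2 fold in Neonatal3.

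FLT4, the lymphatic receptor, was at 8.20, 6.67 and 11.7 FPKM in the prenatal lungs and at 6.66, 6.09 and 6.31 FPKM in the neonatal lungs. The groups were separate only by the narrow step between Prenatal2 and Neonatal1. Its log2(FC) of -0.39 (95% interval -0.91 to 0.13, adjusted p = 0.324) was -0.19 without Prenatal3, the highest sample. Among the 3 VEGF receptors, KDR made up 79.6% ± 2.50 of the summed FPKM before birth and 77.4% ± 3.99 after it (SD, n = 3 each), a difference smaller than the spread. The share of FLT1 was 8.27% ± 0.920 and 11.1% ± 4.71, and it reached 16.2% in Neonatal1 and 6.84% in Neonatal3.

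ANGPT1, the agonist of TEK, showed the largest difference among the 9. Its FPKM was 31.9, 22.7 and 32.0 in the prenatal lungs and 9.53, 15.1 and 18.3 in the neonatal lungs. All neonatal values were lower, Neonatal1 the lowest, and the neonatal mean was 49.6% of the prenatal mean. The log2(FC) was -0.99 (standard error 0.27, 95% interval -1.62 to -0.36, adjusted p = 0.0743, limma), lower than that of all but 2.66% of the mRNAs. It reached the threshold after median-of-ratios scaling, at -1.16 (adjusted p = 0.0277), and after quantile normalization, at -1.25 (adjusted p = 0.0160). With each sample left out it ranged from -1.18 to -0.74, with adjusted p values of 0.0970 to 0.194.

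ANGPT2, which depending on context blocks or activates TEK, was scarcer in each lung. It had 2.45, 2.38 and 3.69 FPKM before birth and 1.96, 2.03 and 1.82 FPKM after it, without overlap and with little spread among the neonatal lungs. Its log2(FC) was -0.37 (95% interval -0.86 to 0.11, adjusted p = 0.317), and it was -0.22 without Prenatal3.

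ANGPT4, a further angiopoietin that binds TEK and that was no gene of the chosen 10, fell from 7.58, 4.61 and 8.36 FPKM to 2.57, 1.30 and 2.42 FPKM. The neonatal mean was 30.6% of the prenatal mean, and no values overlapped. Its log2(FC) of -1.33 had a standard error of 0.28 and an adjusted p of 0.0342 in limma, and the call was lost with any one of the 6 samples left out, at adjusted p values of 0.0586 to 0.125. ANGPT1 held 75.1% ± 2.098 of the summed FPKM of the 3 angiopoietins before birth and 77.0% ± 7.96 after it (SD, n = 3 each). The balance of ANGPT1 to ANGPT2 was 13.0, 9.54 and 8.69 fold in the prenatal lungs and 4.86, 7.43 and 10.1 fold in the neonatal lungs, so that the groups overlapped.

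TEK, the angiopoietin receptor, was at 8.43, 7.52 and 9.24 FPKM before birth and at 5.89, 4.14 and 7.54 FPKM after it. Neonatal3 reached just above Prenatal2, and the other neonatal lungs lay below all prenatal ones. Its log2(FC) was -0.48 (95% interval -1.02 to 0.05, adjusted p = 0.246), with a range of -0.65 to -0.29 when each sample was left out. TIE1, its co-receptor, was steady at 24.2, 24.4 and 28.2 FPKM and then 21.8, 25.2 and 24.3 FPKM, with a log2(FC) of -0.10 (95% interval -0.49 to 0.28, adjusted p = 0.733). Its SD within groups, 0.11 on the log2 scale, was at the 3.84th percentile of all mRNAs. In each lung TEK was the scarcer of both, at 0.348, 0.308 and 0.327 times the FPKM of TIE1 before birth and 0.270, 0.165 and 0.310 times after it. Neonatal3 lay within the prenatal range of this ratio.

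A further list held 9 partners of these genes, of which 7 were measured (PGF and ADAMTS3 were not analysed here). Of the 7, VEGFD and ANGPT4 fell, where 1.45% of all mRNAs passed as lower, and 5 did not pass the test. The median log2(FC) of the list was -0.25. The co-receptor NRP1, which strengthens VEGFA binding to KDR, was the most abundant, between 77.2 and 123 FPKM in all lungs (log2(FC) -0.16, adjusted p = 0.704). NRP2, the co-receptor tied to FLT4, was at 5.22, 4.80 and 4.80 FPKM before birth and 7.10, 6.32 and 6.79 FPKM after it, without overlap (log2(FC) 0.38, adjusted p = 0.211). NRP1 exceeded NRP2 by 21.7, 21.7 and 21.1 fold in the prenatal lungs and by 17.4, 14.2 and 11.4 fold in the neonatal lungs. PTPRB, the endothelial phosphatase that restrains TEK, was at 18.4, 17.2 and 21.5 FPKM and then at 26.6, 24.5 and 24.1 FPKM, again without overlap (log2(FC) 0.38, adjusted p = 0.218). After median-of-ratios scaling the log2(FC) was 0.21 for PTPRB and 0.23 for NRP2 (adjusted p = 0.470 and 0.425 in limma). After quantile normalization it was 0.15 and 0.25 (adjusted p = 0.623 and 0.377). SVEP1, a matrix protein that binds TIE1, had 6.76, 6.74 and 6.46 FPKM before birth and 4.81, 3.59 and 4.001 FPKM after it (log2(FC) -0.58, adjusted p = 0.101). CCBE1, which promotes the processing of VEGFC, overlapped between the groups (log2(FC) -0.25, adjusted p = 0.450). In 3 of the 7 partners the neonatal values were all lower and in 2 all higher, against 9.64% and 20.9% of all mRNAs.

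Since KDR, FLT1, TEK and TIE1 are made by endothelial cells, the markers of that cell type were set beside them. Of 17 endothelial markers 13 were measured. Their mean log2(FPKM + 1) was 5.69 ± 0.15 in the prenatal and 5.70 ± 0.13 in the neonatal group (SD, n = 3 each), and their summed FPKM was 1111 to 1363 and 1356 to 1718. Their median log2(FC) was 0.05, with 7 higher and 6 lower, and none was listed at 0 in any sample. The log2(FC) values ran from -1.03 to 1.35, so the even mean is a balance of opposite shifts. In 7 of the 13 the groups did not overlap, 3 higher and 4 lower. Of all mRNAs, 30.5% did not overlap, 20.9% higher and 9.64% lower. PECAM1 was at 129, 120 and 140 FPKM before birth and at 131, 145 and 125 FPKM after it. The markers did not move together: the TGF-beta co-receptor ENG rose (log2(FC) 1.35, adjusted p = 0.0201) and CALCRL, the adrenomedullin receptor, fell (log2(FC) -0.87, adjusted p = 0.0491). The call of CALCRL was lost with any sample left out (adjusted p = 0.0590 to 0.161). That of ENG held only without Neonatal1 or Neonatal3 and was otherwise lost (up to 0.102). In these fits the log2(FC) of CALCRL stayed between -0.94 and -0.80, and that of ENG at 1.15 or more. Of all mRNAs, 196 to 944 passed with a sample left out, against 1001 with all 6. A lost call alone therefore cannot show that it depended on the sample left out. Relative to the mean of the 13 markers in the same lung, KDR was at 0.05, 0.25 and 0.21 on the log2 scale before birth and at -0.07, -0.19 and -0.46 after it. KDR relative to PECAM1 alone was almost constant in the prenatal lungs, at -1.17, -1.15 and -1.18, and was -1.53, -1.71 and -1.60 in the neonatal lungs. TEK, which overlapped in FPKM, was separate on this scale, at -2.56, -2.43 and -2.40 against -2.80, -3.31 and -2.75. FLT1 and TIE1 overlapped on it too. With all samples centred on these markers, a choice made after the data were seen, ANGPT1 was past the threshold (log2(FC) -0.999, adjusted p = 0.0276 in limma) and none of the other 8 was. Without the centring its log2(FC) was -0.992, so the estimate hardly changed. How many of all mRNAs passed in the centred fit was not counted, so this call has no background share.

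**Figure D3:**
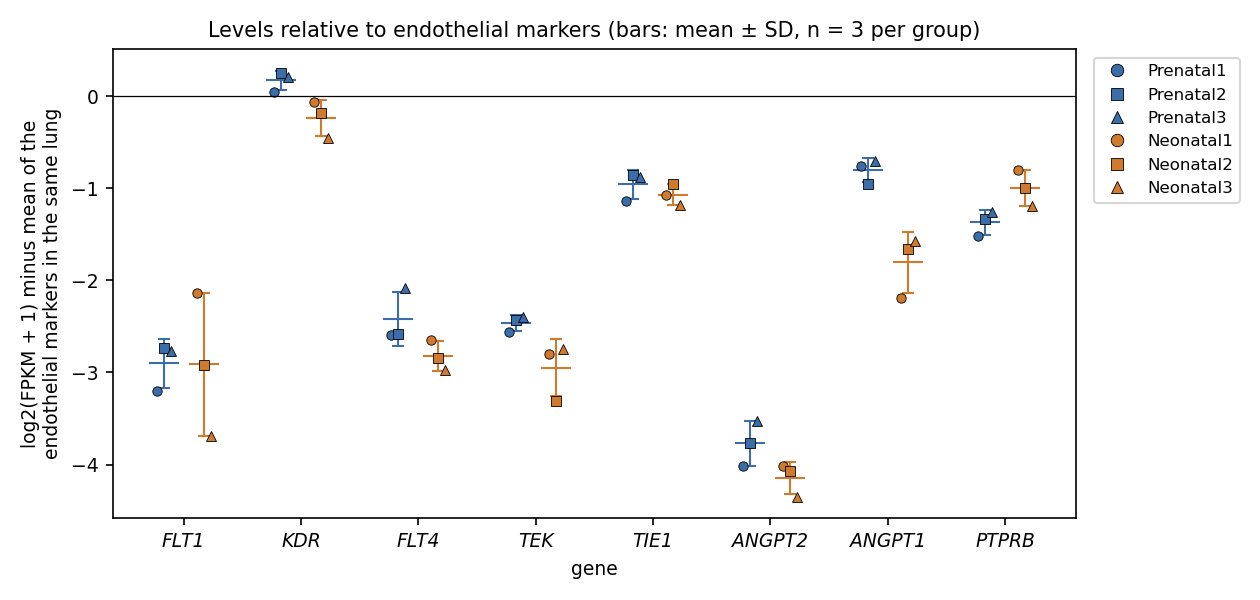
Level of the receptors, ANGPT1, ANGPT2 and PTPRB in each lung, as log2(FPKM + 1) minus the mean of 13 endothelial markers in the same lung; bars are the mean ± SD of 3 lungs. KDR, FLT4, TEK, ANGPT2 and ANGPT1 are lower and PTPRB higher in all neonatal lungs, while FLT1 and TIE1 overlap. The step between the groups is narrow for ANGPT2 (-4.012 in Prenatal1, -4.017 in Neonatal1) and FLT4 (-2.60 and -2.65 in the same lungs). It is also narrow for PTPRB (-1.26 in Prenatal3, -1.19 in Neonatal3).

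Of 8 markers of the lung's capillary cells 5 were measured and none passed the test, with a median log2(FC) of 0.03. The largest differences were those of CD93 and CA4, at 0.44 and -0.35 (adjusted p = 0.327 and 0.373). Of 7 lymphatic markers 5 were measured, beside FLT4. Their summed FPKM, most of it that of LYVE1 in each lung, was 72.2 to 123 before birth and 40.8 to 49.0 after it. A lower mean was found in 4 of the 5, against 40.1% of all mRNAs, and a higher one in 1. LYVE1, a hyaluronan receptor that macrophages can also carry, was at 75.6 ± 24.8 FPKM before birth and fell to 29.3 ± 6.02 FPKM (SD, n = 3 each). In limma its log2(FC) was -1.31 (adjusted p = 0.0349), a call that was lost with any sample left out (adjusted p = 0.0756 to 0.112). PROX1, the transcription factor that defines lymphatic endothelium, was low, between 0.676 and 2.21 FPKM, with overlap. The part of lymphatic cells in the values of FLT4 was not tested. VEGFD is a ligand of FLT4 and no marker of these cells, and which cells made it was not tested.

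Cells that make the ligands were looked at in the same way. Of 9 mural markers 8 were measured, and 3 of them rose: the contractile genes CNN1 (log2(FC) 2.099, adjusted p = 0.0102), ACTA2 (1.74, 0.0138) and TAGLN (1.75, 0.0317). Of all mRNAs, 5.41% passed as higher. With samples left out, CNN1 lost its call without Neonatal2 or Neonatal3 (adjusted p = 0.0611 and 0.0604), ACTA2 kept it only without Prenatal3 or Neonatal1 (otherwise up to 0.0682), and TAGLN only without Neonatal1 (otherwise up to 0.137). The summed FPKM of the mural list was 342 to 505 before birth and 1023 to 1669 after it. Most of this sum was ACTA2 and TAGLN, with means of 116 and 252 FPKM before birth and 383 and 869 FPKM after it. Of the 8 mural genes, 6 had higher and 2 lower means, where 40.1% of all mRNAs had lower ones. ANGPT1 was lower in the neonatal lungs, in which these contractile genes were higher, but the mural list did not move together. NOTCH3, named after its values were seen, had a lower mean (log2(FC) -0.32, adjusted p = 0.492 in limma). Which cells of the whole lung made the contractile genes was not tested. The part of mural cells in the values of ANGPT1 was not tested. The pericyte markers PDGFRB and CSPG4 overlapped between the groups, and RGS5, named after its values were seen, went from 3.98, 4.51 and 3.76 to 1.19, 2.59 and 2.42 FPKM (log2(FC) -0.76, adjusted p = 0.112). Of 6 fibroblast markers 3 were measured, with LUM and COL1A2 at log2(FC) values of 0.78 and 0.74 (adjusted p = 0.0836 and 0.0670) and DCN at -0.17 (adjusted p = 0.744). Among the alveolar type I markers (4 of 7 measured) and type II markers (7 of 8 measured), which mark sources of VEGFA, no gene passed the test. The largest values of log2(FC) were 0.58 for AQP5 and 0.29 for GPRC5A in type I, and 0.97 for SFTPA1 and 0.80 for SFTPC in type II.

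Blood cells were listed too. S100A8 and S100A9 of neutrophils rose by 2.81 and 3.15 on the log2 scale (adjusted p = 0.00254 and 0.00197), as 2 of 4 measured neutrophil genes, where 5.41% of all mRNAs passed as higher. The summed FPKM of the 4 was 38.6 to 60.2 before birth and 310 to 423 after it. ELANE was listed at 0 in all neonatal samples. Of the macrophage list (5 of 6 measured) none passed, with CD68 and MARCO at 1.25 and 1.24 (adjusted p = 0.0506 and 0.188). All 5 had higher means, with a median log2(FC) of 1.08. In limma 4 of the 5 had an unadjusted p under 0.05, against 17.6% of all mRNAs as higher. The erythroid genes HBB and ALAS2 overlapped between the groups, at -0.77 and -0.47 (adjusted p = 0.346 and 0.497). None of 5 platelet markers, a cell type that carries ANGPT1 and VEGF, was matched by symbol, and they were not analysed here. The part of these cells in the values of the ligands was not tested.

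Downstream of the receptors, 27 of 39 listed signalling genes were measured, with 20 higher and 7 lower means. Of all mRNAs, 40.1% had a lower mean. The median log2(FC) of the signalling genes was 0.23, which was 0.07 after median-of-ratios scaling and 0.01 after quantile normalization. The only one past the threshold was DOK2, an adaptor recruited to TEK that is also abundant in blood cells, which stood at 1.65 ± 0.173 FPKM before birth and rose to 6.19 ± 2.46 FPKM (SD, n = 3 each), a log2(FC) of 1.38 with an adjusted p of 0.0366 in limma. It stayed past the threshold without Neonatal1 and lost the call without any other sample (adjusted p up to 0.156). FOXO1 passed after both scalings and is named here for this reason. This transcription factor, which signals from TEK restrain, was at 9.95, 6.67 and 8.95 FPKM and then at 4.45, 3.85 and 5.71 FPKM. Its log2(FC) was -0.75 (adjusted p = 0.0924), and -0.90 after median-of-ratios scaling (adjusted p = 0.0395).

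Of 12 genes known to respond to VEGF in endothelial cells 7 were measured, with a median log2(FC) of 0.44 that is the value of EGR3, a gene at 0.841 FPKM or less in all lungs, and that was 0.23 without Neonatal3. Higher means were found in 5 of the 7, and lower ones in ESM1 and ADAMTS1, with log2(FC) values of -0.24 and -0.20 (adjusted p = 0.758 and 0.741). Of all mRNAs, 40.1% had a lower mean. PLAUR, the urokinase receptor, had 5.91 ± 2.14 FPKM before birth and rose to 16.2 ± 3.13 FPKM (SD, n = 3 each), a log2(FC) of 1.35 with an adjusted p of 0.0356 in limma, a call lost with any sample left out (adjusted p = 0.0549 to 0.129). It is expressed by myeloid cells too. DLL4, the Notch ligand of endothelial tip cells, named after its values were seen, was at 4.60, 4.28 and 9.22 FPKM before birth and 13.2, 17.8 and 11.3 FPKM after it, without overlap (log2(FC) 1.15, adjusted p = 0.0682). It passed without Prenatal3 (adjusted p = 0.0440).

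VEGFA is a classical target of the hypoxia-inducible factors, so the oxygen-sensing genes were listed as well. Of 13 genes 7 were measured, and 1 passed, EGLN3, a prolyl hydroxylase that is itself a target of these factors. It fell from 13.0, 8.74 and 9.13 FPKM to 1.35, 1.72 and 2.01 FPKM (log2(FC) -2.05, adjusted p = 0.00435), in the same lungs in which VEGFA overlapped between the groups. The other 6 had log2(FC) values with adjusted p of 0.0902 or more, the lowest for HIF1A (log2(FC) 0.64). Counting EGLN3, 5 of the 7 had lower means, against 40.1% of all mRNAs, and 2 had higher ones. The median log2(FC) of the 7 was -0.27.

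**Figure D4:**
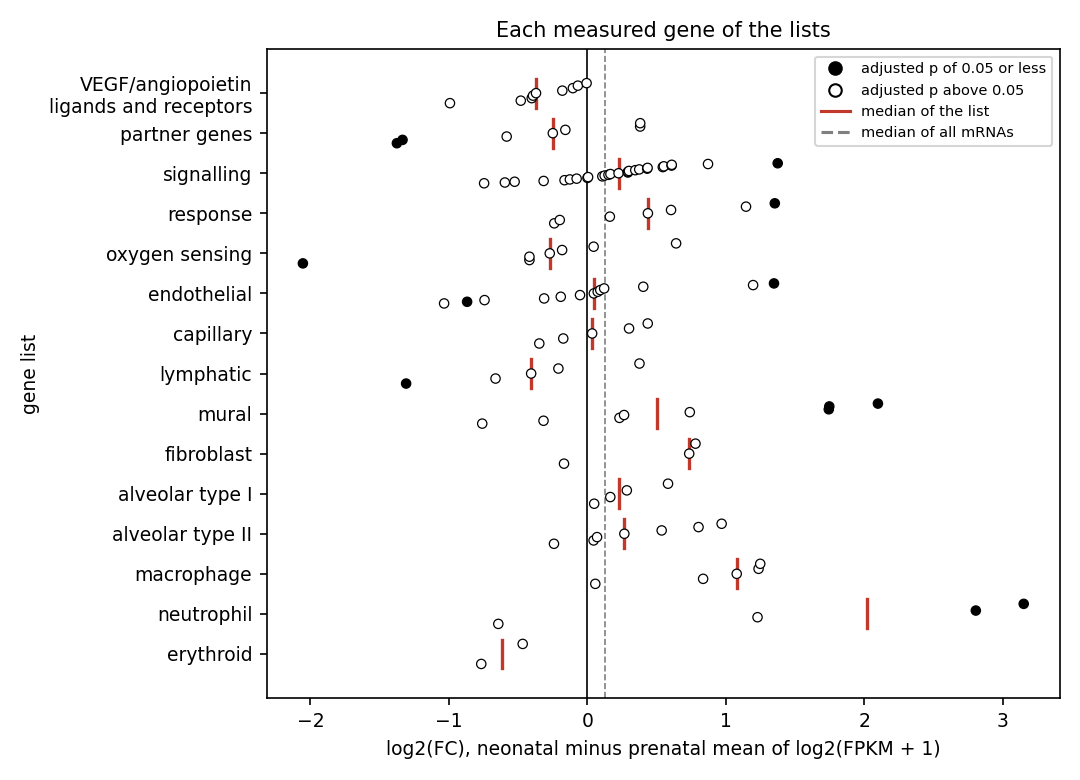
log2(FC) of every measured gene of the lists, one point a gene, filled where the adjusted p in limma is 0.05 or less; red lines are list medians and the dashed line is the median of all mRNAs, 0.13. The 9 VEGF and angiopoietin ligands and receptors lie at or left of 0 with a median of -0.37, the endothelial markers spread on both sides with a median of 0.05, and the mural and neutrophil lists hold filled points on the right.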

How the data were processed

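Total RNA of 6 piglet lungs was sequenced by the authors as strand-specific Ribo-Zero libraries. The FPKM values were deposited as the authors made them, by Cufflinks 2.2.1 from reads mapped to Sscrofa10.2 with TopHat2 2.1.0, after StringTie 1.2.2 assembly for lncRNAs. Every mRNA had FPKM above 0.5 in at least 1 sample. FPKM scales with the mapped total, so a few very abundant transcripts can shift all other values. Identifiers of 9478 of 14579 mRNAs took a symbol from a reference table and 362 from the paper's gene table, so a listed gene given as not measured may be a row without a symbol. Columns were matched to samples by name.

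Neonatal and prenatal log2(FPKM + 1) were compared with limma 3.58.1 in R 4.3.3 on all mRNAs, letting the prior variance follow the mean level, with Benjamini-Hochberg adjustment and a threshold of 0.05. The fit was tested on simulated data. Intervals are 95% limma intervals. Python 3.11.15, numpy 2.4.6, pandas 2.3.3 and matplotlib 3.10.9 served for summaries and figures. Alternatives were pseudocounts of 0.5 and 0.1, quantile normalization, scaling by median-of-ratios size factors, a constant prior variance, genes above 1 FPKM in 3 or more samples, blocking on the replicate number, and leaving out each sample. Centring on endothelial markers was added after seeing the data.

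The 10 genes and all lists were chosen with earlier results of these data known. Named were the 10, their partners, list genes past the threshold or else the 2 largest changes of a list, and the 2 genes most like the member with the lowest p. Named outside this rule, after their values were seen, were SFTPC, AGER, PECAM1, PROX1, PDGFRB, CSPG4, RGS5, NOTCH3, DCN, ELANE, FOXO1, DLL4, EGR3, ESM1, ADAMTS1, HIF1A and EPAS1. Promoter motifs were not analysed here, and 1 signalling gene is not reported here.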

Additional observations from a re-analysis of the deposited data

How the results depend on the processing

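Of the 9 ligands and receptors, 1 was past the threshold after median-of-ratios scaling, after quantile normalization and with centring on endothelial markers (ANGPT1 each time), and 0 in every other alternative. With samples left out, log2(FC) ranged from -0.34 to 0.31 for FLT1, from -0.38 to 0.03 (0.0259 without Neonatal1) for VEGFA and from -0.23 to 0.18 for VEGFC, so that their signs turned. The other 6 stayed negative in all alternatives that were run. Among the partners, 2 passed in all alternatives with 6 samples and 0 to 1 with a sample left out. Signalling genes past the threshold numbered 3 after either scaling and 0 to 1 with a sample left out, and response genes 0 to 1. Over all mRNAs, 1001 passed (789 higher, 212 lower), 985 after median-of-ratios scaling (650 higher, 335 lower), 1155 after quantile normalization (669 higher, 486 lower) and 196 to 944 with a sample left out. With centring on endothelial markers, all mRNAs past the threshold were not counted. The replicate number as a block left 401 mRNAs, 0 signalling genes, 0 response genes and both partners. Same-numbered lungs came from different sows, and the correlations of their deviations from the group means lay between -0.0407 and 0.000466, with no lung correlating best with its own number, so the numbers are only labels. No counts were at hand, so counting error is not covered. The low values of VEGFC, ANGPT2 and PROX1 are the most exposed to it, and log2(FPKM + 1) understates their differences: with a pseudocount of 0.1, the log2(FC) of ANGPT2 was -0.50.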

Other observations

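KDR has an antisense lncRNA in the part of the lncRNA classification that was read (1998 transcripts), TU106375, on the plus strand at chr8:43919547-43920448 of Sscrofa10.2. It was the 1 transcript there whose partner was among the 9 genes. Its FPKM was 4.64, 1.36 and 1.99 in the prenatal lungs and 0.948, 2.24 and 3.26 in the neonatal lungs, so that the groups overlapped where those of KDR did not. Reads were assigned by strand, so both transcripts can be told apart, but no test was run on it.

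The genes whose log2(FPKM + 1) followed ANGPT1 most closely over the 6 samples were FAXDC2, with a Pearson r of 0.990, and CDK13, with 0.985, among 8710 genes with a symbol and a mean FPKM of 1 or more. Of these, 68 had an r above 0.95. The points share libraries and the difference between the groups, so the coefficients are descriptions. FAXDC2 went from 18.03, 11.00 and 17.98 FPKM to 2.85, 5.21 and 6.18 FPKM.

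In the neonatal lungs, FLT1 (9.91, 5.73 and 3.45 FPKM), NRP1 (123, 89.7 and 77.2 FPKM) and EPAS1 (237, 144 and 94.2 FPKM), the endothelial hypoxia-inducible factor subunit, were each highest in Neonatal1 and lowest in Neonatal3, a likeness noticed after the values were seen and not tested. The order is not particular to them: KDR, PTPRB and ENG had it too, while VEGFA and TEK did not. How many of all mRNAs had it was not counted.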
